A study of Mus musculus with 8 samples.

Results

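Border-associated macrophage genes are described here in brain RNA of mice with experimental autoimmune encephalomyelitis. The 8 genes are Lyve1, Cbr2, Mrc1, Cd163, F13a1, Pf4, Folr2 and Stab1, out of 22180 genes measured. They were chosen by a list of perivascular and meningeal macrophage genes drawn up with the array values already known, so the values over all 8 arrays and 4 groups count as used. Their own values and differences are therefore given as descriptions, without p-values of single members. Counts of members past a threshold are given too, and nothing is read from them.

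The disease was induced with MOG, the myelin oligodendrocyte glycoprotein, and brain was taken at day 14, which the labels call the disease maximum. The 4 groups of 2 arrays each were e/e NDP-MSH, e/e PBS, wild-type NDP-MSH and wild-type PBS. C57BL/6Je/e mice (e/e) were recognised by their yellow coat and wild-type mice by their black coat, and the e allele is known as an inactivating allele of Mc1r, the melanocortin receptor of pigment cells. NDP-MSH is a stable melanocortin receptor agonist made after alpha-MSH. Each treated mouse received 5 µg of it into a vein on days 8, 10 and 12, and PBS is phosphate-buffered saline. All groups were immunized, so no healthy brain is among them. The labels do not say whether a sample is 1 animal or a pool, and every error below measures only the spread between these arrays. The labelled tissue is the whole brain, in which fewer cells of a type and less RNA per cell cannot be told apart.

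Border-associated macrophages live in the meninges, in the choroid plexus and around blood vessels of the brain. Unlike microglia, which sit in the tissue itself, they carry scavenger receptors that take up proteins, glycans and haemoglobin complexes from the fluid spaces. Mrc1 and Cd163 are common markers of these cells, and Lyve1 marks a part of them.

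Values are on a log2 scale, with base 2 assumed, and each gene was centred by the authors on its median over the arrays. A log2 value below is thus a level relative to that gene's own median, and levels of different genes cannot be set against each other. A difference is the mean of the first group minus that of the second, with the standard error (SE) of a limma fit over all 8 arrays. Each of the 8 genes has 1 probe set. The rounding steps in the values put all 8 in the band of uncentred signal from 4 to 8 on the log2 scale, as for 26014 of the 33793 probe sets. A probe set with arrays on both sides of 8 falls in this band too. Presence of a marker could not be read from centred values, so neither the brain label nor the macrophage label was checked by it. Which genes moved together is given below, and the members did not share a single pattern.

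Some arrays stood apart in genes of other tissues. Wild-type NDP-MSH 1 and 2 had low cerebellar transcripts, with a median over 9 genes of -2.46 and -1.89, against -0.15 and 0.21 in wild-type PBS 1 and 2 and between -0.05 and 0.37 in the e/e arrays. Both treated wild-type arrays share this, so low cerebellar signal and NDP-MSH cannot be told apart in wild-type brains. A single array, wild-type NDP-MSH 1, had high anterior pituitary transcripts, with Prl (prolactin) at 6.97 and Gh (growth hormone) at 6.54. Of the female transcript Xist and the male transcript Eif2s3y, e/e NDP-MSH 1 and 2 had low Xist (-4.46 and -4.56) with high Eif2s3y (2.78 and 2.87), and e/e PBS 2 had Eif2s3y at 2.04 with Xist at -0.82. e/e PBS 1 had no raised Eif2s3y (-0.02), so sex and treatment cannot be told apart in e/e brains. Wild-type arrays had Eif2s3y between -0.19 and 0.02, so it was raised in e/e arrays only. Sex is thus also tied in part to genotype wherever e/e and wild-type brains are compared. Interferon gamma response genes also split the e/e PBS pair, with a median over 10 genes of -1.82 in e/e PBS 1 and 0.71 in e/e PBS 2. The part of each of these in the differences below was not tested, and values with single arrays left out are given beside the results.

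Promoter windows, 250 bases before to 50 after the transcription start, are shown for a gene high after NDP-MSH in wild-type brains with no lower level in e/e PBS than in wild-type PBS (Cbr2), for a pair that was also low in e/e brains (Cd163 and F13a1), and for a gene that stayed near its median (Pf4). The sequences are from RefSeq (GRCm38.p6), on the strand of the gene, and 7 of the 8 genes had an entry. Lyve1 had none. Capitals mark GAGGAA, the core that the macrophage factor PU.1 prefers, and TGCTGA, the core letters of the element that MAF factors bind, each on either strand.
Cbr2, chr11:120731972-120732271, minus strand: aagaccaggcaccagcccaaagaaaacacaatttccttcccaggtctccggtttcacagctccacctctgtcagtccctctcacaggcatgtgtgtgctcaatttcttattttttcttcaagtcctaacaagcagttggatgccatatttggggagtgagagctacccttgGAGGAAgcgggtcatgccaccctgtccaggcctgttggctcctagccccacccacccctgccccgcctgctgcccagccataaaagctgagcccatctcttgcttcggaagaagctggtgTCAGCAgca
Cd163, chr6:124304401-124304700, plus strand: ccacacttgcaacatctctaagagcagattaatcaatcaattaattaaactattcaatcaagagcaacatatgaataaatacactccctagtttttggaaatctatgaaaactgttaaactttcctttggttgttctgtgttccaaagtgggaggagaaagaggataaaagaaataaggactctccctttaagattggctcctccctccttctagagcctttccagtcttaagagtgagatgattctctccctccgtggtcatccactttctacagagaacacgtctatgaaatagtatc
F13a1 (the downstream start), chr13:37049164-37049463, minus strand: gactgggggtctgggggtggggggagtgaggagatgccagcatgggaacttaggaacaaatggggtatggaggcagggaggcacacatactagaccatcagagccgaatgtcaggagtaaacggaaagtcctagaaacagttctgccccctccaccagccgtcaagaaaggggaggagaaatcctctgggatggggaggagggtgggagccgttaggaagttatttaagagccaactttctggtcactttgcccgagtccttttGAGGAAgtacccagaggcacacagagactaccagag
Pf4, chr5:90772185-90772484, plus strand: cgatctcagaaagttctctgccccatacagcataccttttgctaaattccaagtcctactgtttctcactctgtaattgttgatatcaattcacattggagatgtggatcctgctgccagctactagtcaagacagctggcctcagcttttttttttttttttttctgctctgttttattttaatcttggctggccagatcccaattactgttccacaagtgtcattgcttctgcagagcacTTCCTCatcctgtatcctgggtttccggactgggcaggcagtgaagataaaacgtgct

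Positions are counted from the start site, and negative ones lie before it. In the Cbr2 window the PU.1 letters begin at -79 and the MAF letters, on the other strand, at 42. The F13a1 window has PU.1 letters at 15, and the Pf4 window has them on the other strand at -8. No match was found in the Cd163 window. Over the 9 windows of the 7 genes, GAGGAA occurred in 6 windows (5 genes) and TGCTGA in 4 windows (3 genes), and no marked stretches overlapped. Of all 32851 promoter windows in the table, 28.3% held GAGGAA and 19.5% held TGCTGA on either strand. A match describes letters only and is not a binding site.

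The first comparison that the series names is NDP-MSH against PBS in wild-type mice. Of the members 7 were higher after NDP-MSH (55.0% of all genes) and Stab1 was lower, with a median difference of 0.34 against 0.02 over all 22180 genes. In 5 members, Lyve1, Cbr2, Cd163, F13a1 and Folr2, both NDP-MSH arrays lay above both PBS arrays, a separation found in 25.3% of all genes, and 0 members were lower without overlap (18.9%). These same 5 had both wild-type NDP-MSH arrays above all the other 6 arrays, as did 9.11% of all genes. No member passed a limma adjusted p of 0.05 (0 of 8, with 0.176% of all genes called, 0.00451% higher and 0.171% lower). At an unadjusted p under 0.05, 4 of 8 members were higher and 0 lower, against 6.72% and 5.60% of all genes (12.3% either way). Since this contrast was in view when the members were chosen, nothing is read from these counts.

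**Figure D1:**
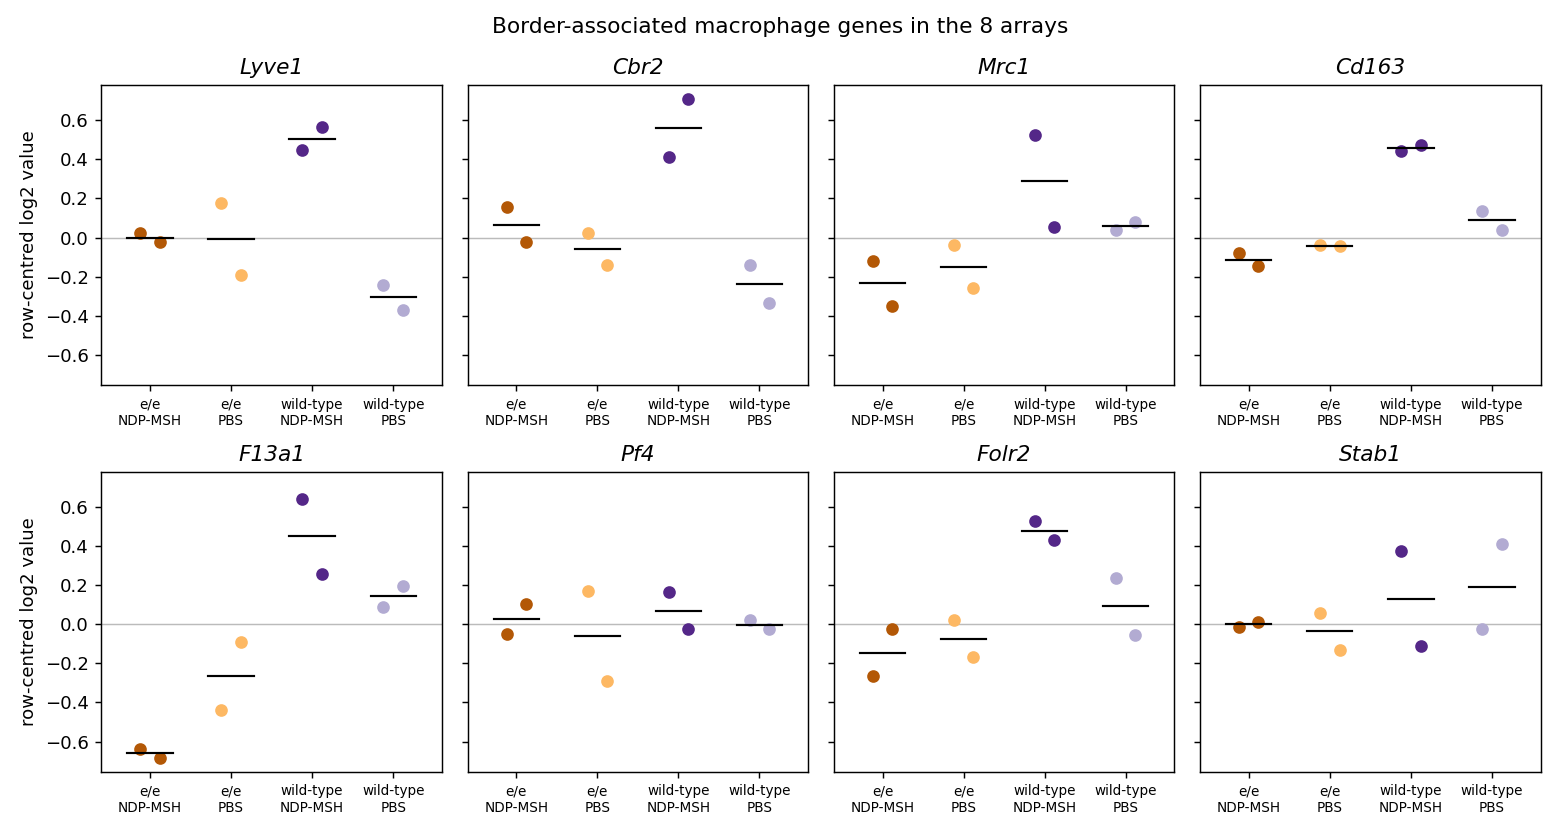
Row-centred log2 value of each gene (vertical axis) in the e/e NDP-MSH, e/e PBS, wild-type NDP-MSH and wild-type PBS arrays (horizontal axis). Points are arrays, replicate 1 left of replicate 2, and bars are means of 2. Lyve1, Cbr2, Cd163, F13a1 and Folr2 have both wild-type NDP-MSH points above all other points, and Mrc1, Pf4 and Stab1 do not.

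Among the receptors, Lyve1, which binds hyaluronan and is also a marker of lymphatic endothelium, had log2 values of 0.45 and 0.56 in the NDP-MSH arrays 1 and 2 of wild-type mice, against -0.24 and -0.37 in wild-type PBS 1 and 2. In e/e brains it lay at 0.02 and -0.02 with NDP-MSH, against 0.18 and -0.19 with PBS. The wild-type NDP-MSH arrays were the highest and the wild-type PBS arrays the lowest of the 8, and the e/e groups overlapped between them. The difference was 0.81 ± 0.12 (SE) in wild-type mice. It was 0.87 without wild-type NDP-MSH 1, the array with pituitary signal. Without e/e PBS 1 or without e/e PBS 2, arrays that enter only the shared error, Lyve1 was among 49 genes past the adjusted threshold (0.221% of all genes in either fit). Nothing is read from that call either.

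Cd163 encodes the receptor for haemoglobin bound to haptoglobin. Its level was 0.44 and 0.47 in wild-type NDP-MSH 1 and 2, against 0.14 and 0.04 in wild-type PBS. e/e NDP-MSH arrays had -0.08 and -0.15, against -0.04 and -0.04 in e/e PBS. Replicates of Cd163 were the closest of the 8 genes, with a pooled standard deviation within groups of 0.043, and the groups followed the order wild-type NDP-MSH, wild-type PBS, e/e PBS, e/e NDP-MSH without overlap. The wild-type difference was 0.37 ± 0.07, and 0.24 after quantile normalization of the deposited values.

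Folr2 encodes folate receptor beta, a folate receptor of macrophages. It lay at 0.53 and 0.43 in wild-type NDP-MSH arrays, against 0.24 and -0.06 in wild-type PBS arrays. The e/e values were -0.27 and -0.02 with NDP-MSH, against 0.02 and -0.17 with PBS, so the other 3 groups overlapped below the wild-type NDP-MSH pair. The difference in wild-type brains was 0.39 ± 0.13. It was 0.24 after quantile normalization and also 0.24 without wild-type PBS 2.

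Mrc1, the macrophage mannose receptor, did not follow these 3 receptors in every array. The 2 wild-type NDP-MSH arrays differed, at 0.52 and 0.05, against 0.04 and 0.08 in wild-type PBS. In e/e brains the values were -0.12 and -0.35 with NDP-MSH, against -0.04 and -0.26 with PBS. The wild-type groups overlapped, as wild-type NDP-MSH 2 lay between the PBS arrays. The difference of 0.23 ± 0.16 became -0.01 without wild-type NDP-MSH 1 and 0.46 without wild-type NDP-MSH 2.

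Stab1 encodes stabilin-1, a scavenger receptor of macrophages and sinusoidal endothelium. Its values were 0.37 and -0.11 in the NDP-MSH arrays of wild-type mice, against -0.03 and 0.41 in wild-type PBS 1 and 2. The e/e arrays lay at -0.01 and 0.01 with NDP-MSH, against 0.06 and -0.13 with PBS. Both wild-type groups spread widely and overlapped, and the wild-type difference was -0.06 ± 0.19. It turned to 0.18 without wild-type NDP-MSH 2 and to 0.16 without wild-type PBS 2, and was -0.30 without wild-type NDP-MSH 1 and -0.28 without wild-type PBS 1.

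Of the enzymes, Cbr2, a carbonyl reductase, had 0.41 and 0.71 in the NDP-MSH arrays of wild-type mice, against -0.14 and -0.33 in wild-type PBS 1 and 2. e/e NDP-MSH arrays had 0.15 and -0.02, against 0.02 and -0.14 in e/e PBS. Its pattern over the arrays was that of Lyve1, and its wild-type difference was 0.80 ± 0.13, or 0.95 without wild-type NDP-MSH 1.

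F13a1 encodes the A subunit of coagulation factor XIII, a transglutaminase that cross-links fibrin and is made by macrophages and megakaryocytes. It lay at 0.64 and 0.26 in wild-type NDP-MSH arrays, against 0.09 and 0.20 in wild-type PBS arrays. In e/e arrays it lay at -0.64 and -0.68 with NDP-MSH, against -0.44 and -0.09 with PBS. Its spread over all arrays, 1.33, was the widest of the 8 genes, and e/e NDP-MSH was the lowest group. The wild-type difference of 0.31 ± 0.15 was 0.11 without wild-type NDP-MSH 1 and 0.50 without wild-type NDP-MSH 2, and 0.20 after quantile normalization.

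Pf4, the chemokine CXCL4 of platelets and macrophages, was the only secreted chemokine among the 8. Its values were 0.16 and -0.02 in wild-type NDP-MSH, against 0.02 and -0.03 in wild-type PBS. The e/e values were -0.05 and 0.10 with NDP-MSH, against 0.17 and -0.29 with PBS. All 4 groups overlapped, the range over the arrays was 0.46, the narrowest of the 8 genes, and the wild-type difference was 0.07 ± 0.15, or -0.02 without wild-type NDP-MSH 1.

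The second named comparison sets NDP-MSH against PBS in mice of the e/e genotype. Here 4 members were higher (53.7% of all genes) and 4 lower, with a median difference of -0.03 against 0.01 over all genes. F13a1 differed by -0.40 ± 0.15 (-0.25 after quantile normalization), and the other 7 members lay between -0.09 (Mrc1, ± 0.16) and 0.12 (Cbr2, ± 0.13). Both e/e NDP-MSH arrays lay below both e/e PBS arrays for Cd163 and F13a1, as for 14.3% of all genes, and in 0 members did they lie above (16.0%). For both genes the e/e NDP-MSH arrays were the lowest of all 8, as for 4.40% of all genes. Both genes also had NDP-MSH above PBS in wild-type brains, an opposite direction in the genotypes seen in 3.17% of all genes. For Cd163 the e/e difference was -0.07 ± 0.07, no larger than its SE. No member passed an adjusted p of 0.05 by limma (0 of 8, and 0% of all genes). At an unadjusted p under 0.05 there was 1 of 8, lower, against 1.78% of all genes (3.56% either way). These values too were known when the members were chosen, so nothing is read from the counts.

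These e/e differences were read against a PBS pair that stood apart. Without e/e PBS 2, the array with Xist and Y-linked signal together, Lyve1 differed by -0.18, Pf4 by -0.14 and F13a1 by -0.22. Without e/e PBS 1 the same genes differed by 0.19, 0.32 and -0.57. The sign for Lyve1 and Pf4 thus turned with which PBS array was kept, as it did for Mrc1 (-0.20 and 0.02), Folr2 (-0.17 and 0.02) and Stab1 (-0.06 and 0.13). F13a1, Cd163 (-0.07 in both cases) and Cbr2 (0.04 and 0.20) kept theirs. Leaving out e/e NDP-MSH 1 took Folr2 to 0.05, Lyve1 to -0.02 and Cbr2 to 0.03, and leaving out e/e NDP-MSH 2 took Mrc1 to 0.03, Cd163 to -0.04, Cbr2 to 0.21 and Pf4 to 0.01.

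**Figure D2:**
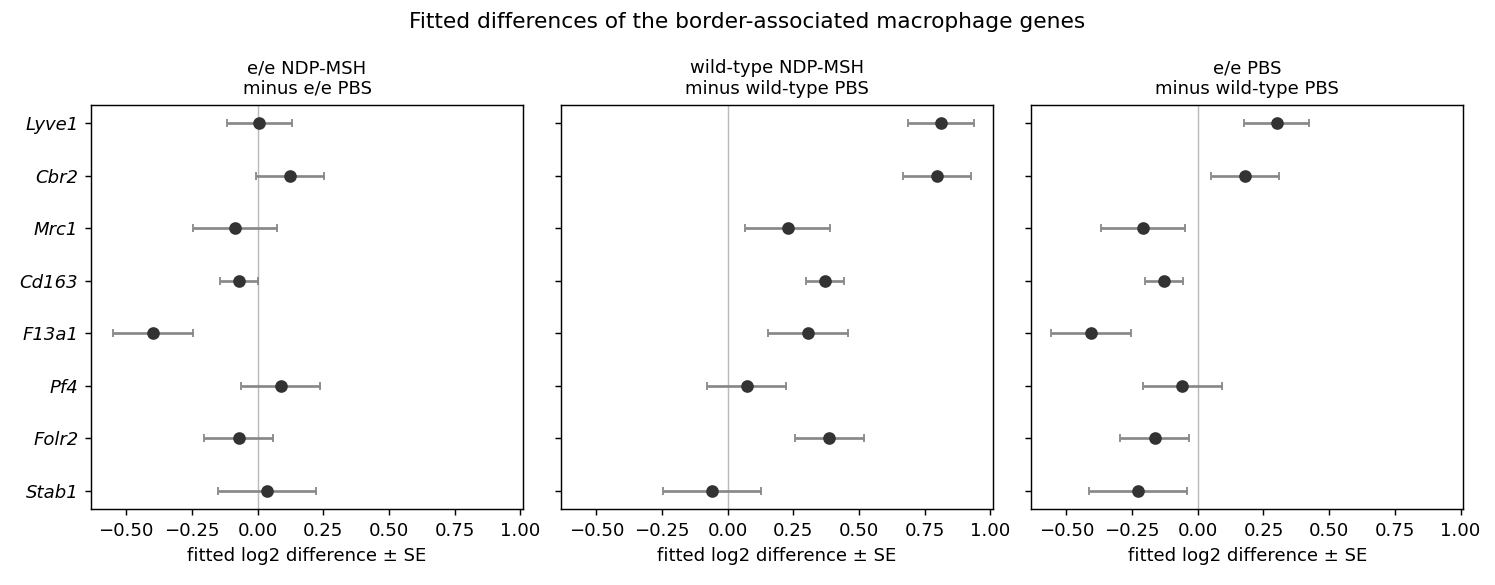
Fitted log2 difference with its SE (horizontal axis) for each gene (vertical axis) in 3 comparisons, each over 2 arrays a group. In wild-type brains Lyve1 and Cbr2 lie near 0.8 and Pf4 and Stab1 near 0, in e/e brains all but F13a1 lie near 0, and under PBS the e/e group has higher Lyve1 and lower F13a1.

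The difference between the NDP-MSH effects, wild-type minus e/e, was fitted as an interaction. Lyve1 had an effect of 0.01 in e/e and 0.81 in wild-type brains, a difference of 0.81 ± 0.18. For F13a1 the effects were -0.40 and 0.31 in the same order, a difference of 0.70 ± 0.22, or 0.45 after quantile normalization. Cbr2 differed by 0.67 ± 0.18, Folr2 by 0.46 ± 0.18, Cd163 by 0.44 ± 0.10 and Mrc1 by 0.32 ± 0.23, while Pf4 and Stab1 differed by -0.02 ± 0.21 and -0.10 ± 0.26. With single arrays left out, Mrc1 ran from 0.08 (without wild-type NDP-MSH 1) to 0.55 (without wild-type NDP-MSH 2). Pf4 ran from -0.25 (without e/e PBS 1) to 0.22 (without e/e PBS 2) and Stab1 from -0.34 (without wild-type NDP-MSH 1) to 0.15 (without wild-type NDP-MSH 2), so both turned sign. The other 5 genes stayed within 1.5 times of their values above. The median was 0.45, against 0.01 over all genes, and 6 of 8 lay above 0 (52.8% of all genes). No member passed an adjusted p of 0.05 by limma (0 of 8, and 0% of all genes). At an unadjusted p under 0.05, 5 of 8 had a positive difference and 0 a negative one, against 3.67% and 4.05% of all genes (7.71% either way). Nothing is read from these counts, because the members were chosen with the values of all groups known.

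The genotypes were also compared under PBS, a comparison that shares the wild-type PBS arrays with the first. Here 2 members were higher in e/e (50.1% of all genes) and 6 lower, with a median of -0.15 against 0.00 over all genes. Lyve1 and Cbr2 were higher in e/e PBS than in wild-type PBS, by 0.30 ± 0.12 and 0.18 ± 0.13, without overlap of the arrays (17.4% of all genes). For Cbr2 the nearest arrays were almost level, at -0.1389 in e/e PBS 2 and -0.1393 in wild-type PBS 1. Lyve1 differed by 0.46 after quantile normalization, and Cbr2 by 0.08 without wild-type PBS 2 and 0.28 without wild-type PBS 1. F13a1 (-0.41 ± 0.15), Mrc1 (-0.21 ± 0.16) and Cd163 (-0.13 ± 0.07) were lower without overlap (16.7% of all genes). Without e/e PBS 1 these differences were 0.12 for Lyve1, 0.10 for Cbr2, -0.23 for F13a1, -0.32 for Mrc1 and -0.13 for Cd163 (-0.08 without wild-type PBS 1), and without e/e PBS 2 they were 0.48, 0.26, -0.58, -0.10 and -0.13. For the last 3 genes, all 4 e/e arrays lay below all 4 wild-type arrays, as for 2.57% of all genes. No member passed an adjusted p of 0.05 by limma (0 of 8, and 0% of all genes). At an unadjusted p under 0.05 there was 1 of 8 higher (2.35% of all genes) and 1 of 8 lower (2.56%, with 4.91% either way). With the members chosen in view of these values, nothing is read from the counts.

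Over the 8 arrays the members did not share a single pattern. Pearson correlations of the 28 pairs ran from -0.18 (Cbr2 and Stab1) to 0.96 (Lyve1 and Cbr2), with a median of 0.46. The arrays are shared by all pairs and no p is given. Lyve1 and Cbr2 formed the closest pair, with a Spearman rho of 0.98. Cd163 went with Folr2 (r 0.91), F13a1 (0.85) and Mrc1 (0.79), and also with Cbr2 (0.74) and Lyve1 (0.69).

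**Figure D3:**
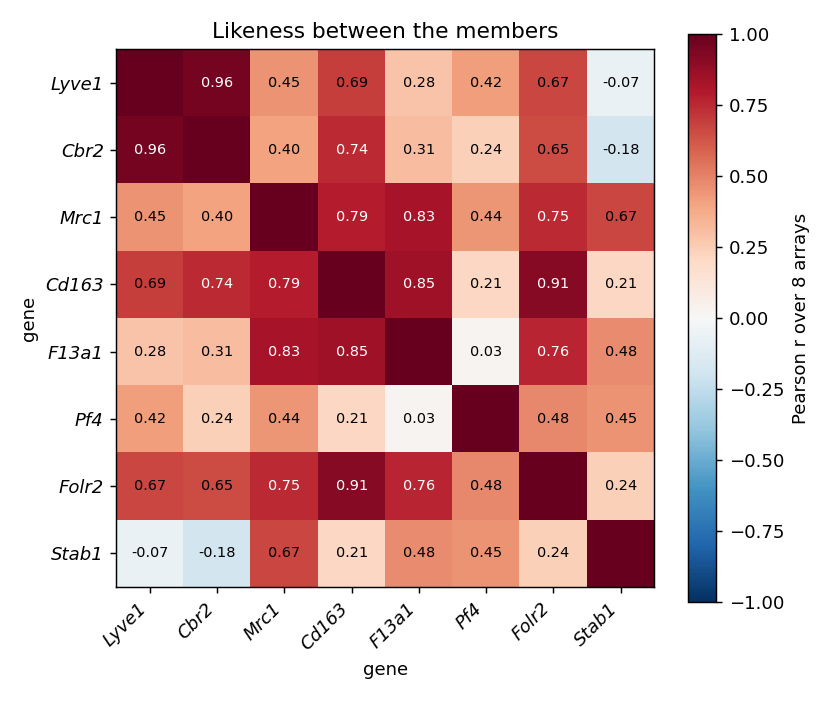
Pearson correlation over the 8 arrays for each pair of genes, named on both axes, from -1 (blue) to 1 (red). Lyve1 and Cbr2 form the closest pair (0.96), and Cd163 and Folr2 the next (0.91). Pf4 has no pair at 0.6 or above and Stab1 has 1, with Mrc1 (0.67).

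Over the 6 arrays other than wild-type NDP-MSH, Lyve1 and Cbr2 still had r 0.86, and Cd163 and F13a1 had 0.85. Lyve1 against F13a1 was 0.28 over all arrays and -0.84 over those 6, in which e/e PBS brains had more Lyve1 and less F13a1 than wild-type PBS brains. Cbr2 against F13a1 was 0.31 over all arrays and -0.88 over the 6. Cd163 turned from 0.74 to -0.56 against Cbr2 and from 0.69 to -0.61 against Lyve1. Against Folr2 and Mrc1, Cd163 stayed positive over the 6, at 0.65 and 0.81.

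Against the mean of the other 7 members, Cd163 had r 0.94, exceeded by 16 genes only among the 22173 ranked (0.0767% at least as high, Cd163 included), and Folr2 had 0.90 (0.392% as high). Mrc1 followed with 0.84 (1.42%). F13a1 (0.67), Lyve1 (0.65) and Cbr2 (0.61) had 8.48% to 10.0% of genes as high, and Pf4 (0.37) and Stab1 (0.30) had 29.5% and 35.5%. The members were chosen with these same arrays known, so the ranks are descriptions and nothing is read from them. Outside the list, the genes most like the mean of the 8 members were Slc6a7 (r 0.98, rho 0.93), Tnfsf14 (0.98, 0.86), Agr3 (0.98, 0.95), Cenph (0.97, 0.91), Surf4 (0.97, 0.83), Rbis (0.96, 0.93), Lor (0.96, 0.91), Stat4 (0.96, 0.91), Ldc1 (0.95, 0.88) and Ip6k2 (0.95, 0.91), each over 8 arrays.

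Further genes of border macrophages, listed beside the members, were split in the wild-type comparison. Of 17 measured genes 9 were higher and 8 lower after NDP-MSH in wild-type brains, with a median of 0.01 and 0 past the adjusted threshold in either direction. The smallest p values were those of Maf, a macrophage transcription factor gene, at -0.23 ± 0.09 (limma adjusted p = 0.372), and Hpgd, the prostaglandin-degrading dehydrogenase, at -0.34 ± 0.16 (0.445). Under PBS 14 of the 17 had a lower level in e/e than in wild-type brains (median -0.06). Ms4a7, a membrane protein gene of border macrophages, differed there by -0.65 ± 0.12 (adjusted p = 0.839) and Wfdc17 by -0.60 ± 0.12 (0.871). In the e/e comparison 12 of 17 were lower (median -0.12), and the lectin gene Cd209g lay at -0.23 ± 0.09 (adjusted p = 1.0).

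**Figure D4:**
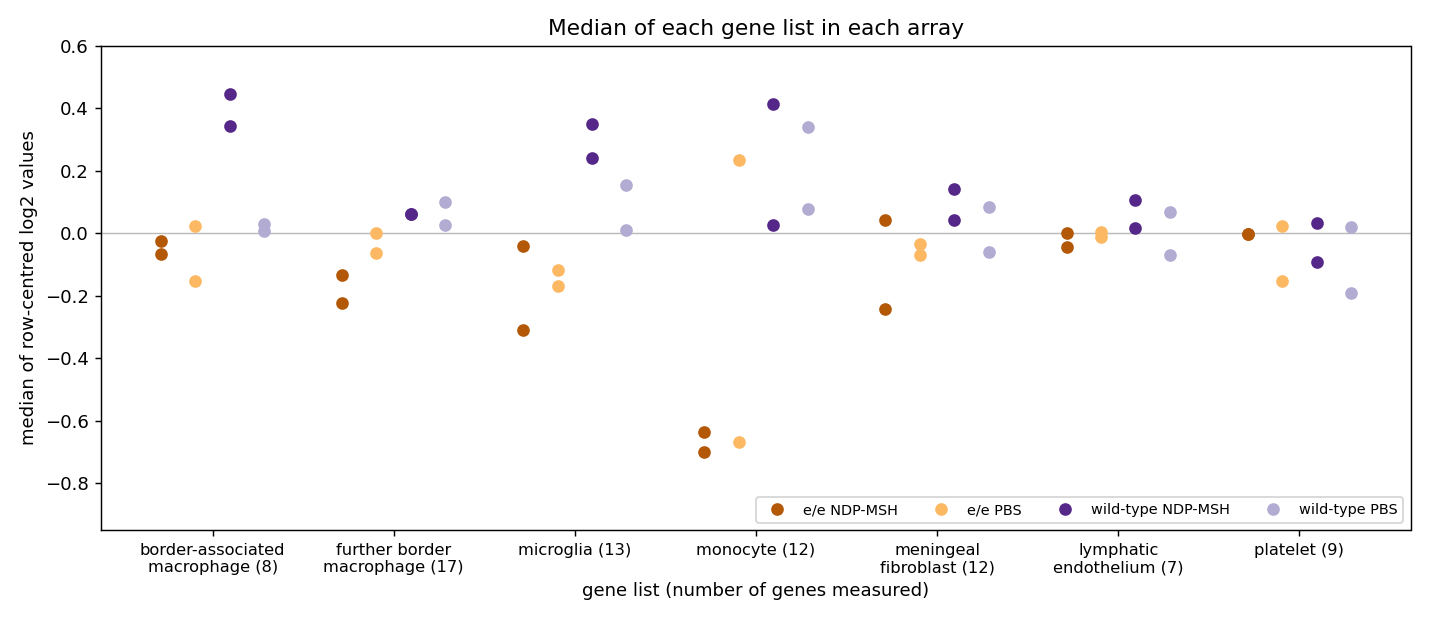
Median row-centred log2 value of each gene list (horizontal axis, with the number of genes) in each array, with 2 points for each of the 4 groups. The border-associated macrophage and microglia lists have their highest points in both arrays from wild-type mice given NDP-MSH, and the monocyte list is low in e/e NDP-MSH and in e/e PBS 1.

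Other macrophage-like cells gave these values in the same arrays. Homeostatic microglia genes had list medians of 0.35 and 0.24 in wild-type NDP-MSH arrays, against 0.01 and 0.15 in wild-type PBS arrays, and 10 of 13 were higher (median difference 0.14). Fcrls, an Fc receptor-like gene of microglia, lay at 0.89 ± 0.21 (limma adjusted p = 0.228) and Crybb1 at 0.44 ± 0.12 (0.25). Under PBS 11 of 13 microglia genes were lower in e/e brains, with a median of -0.34. Infiltrating monocyte genes were lower in 8 of 12 in the wild-type comparison (median -0.05) and in 12 of 12 in the e/e comparison (median -0.70), where Chil3, a chitinase-like gene of myeloid cells, lay at -1.82 ± 0.45 (adjusted p = 1.0). Their medians in single arrays were -0.70 and -0.64 in e/e NDP-MSH, against -0.67 and 0.24 in e/e PBS. F13a1 was low in the same 3 e/e arrays. Interferon gamma response genes were lower in 10 of 10 in the e/e comparison (median -1.65) and higher in 6 of 10 in the wild-type comparison (median 0.06). Their list medians were -2.29 and -2.28 in e/e NDP-MSH 1 and 2, against -1.82 and 0.71 in e/e PBS 1 and 2. In wild-type brains they were 0.38 and 0.31 with NDP-MSH, against -0.29 and 0.78 with PBS.

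Cells that share single members with border macrophages were checked in the wild-type comparison. Of 7 lymphatic endothelium genes, relevant to Lyve1, 5 were higher and 2 lower (median 0.08). Mmrn1, a multimerin of lymphatic vessels, lay at 0.42 ± 0.08 (limma adjusted p = 0.148) and Reln at -0.63 ± 0.20 (0.304). The other lower gene was Prox1 (-0.40 ± 0.14). Wild-type NDP-MSH arrays also had low cerebellar transcripts, and the part of that in the Reln and Prox1 differences was not tested. Of 9 platelet genes, relevant to Pf4 and F13a1, 5 were higher (median 0.06), and Tubb1, the platelet tubulin gene, lay at 0.44 ± 0.11 (0.244). Meningeal fibroblast genes were higher in 11 of 12 (median 0.12). Aldh1a2, the retinoic acid-forming enzyme of the meninges, lay at 0.73 ± 0.20 (0.258) and Igf2 at -0.18 ± 0.11 (0.536). The fibroblast list medians overlapped, at 0.04 and 0.14 in wild-type NDP-MSH against 0.08 and -0.06 in wild-type PBS. Choroid plexus epithelium genes were lower in 9 of 10 (median -0.26). Their list medians were -0.44 and 0.11 in wild-type NDP-MSH 1 and 2, against -0.04 and 0.18 in wild-type PBS, so the groups overlapped. T cell genes were higher in 7 of 7 (median 0.18), but their list medians also overlapped, at 0.15 and 0.10 against -0.04 and 0.23. Brain endothelium genes were higher in 7 of 9 (median 0.16), with overlapping list medians (0.1842 and 0.0047 against 0.0209 and -0.0612). Dendritic cell genes were lower in 5 of 7 (median -0.25). None of these genes passed the adjusted threshold. Whether any of these cell types accounted for a member's difference was not tested.

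Genes of the pathways in which the members act were listed as well. Among 9 hyaluronan genes 6 were higher in wild-type NDP-MSH brains (median 0.09), among them Hmmr, a hyaluronan receptor, at 0.29 ± 0.11 (limma adjusted p = 0.366), and Tnfaip6, a hyaluronan-binding protein gene, was at -0.25 ± 0.08 (0.304). Of 8 genes of haemoglobin and haem handling 5 were higher (median 0.04). Haptoglobin (Hp), whose complexes Cd163 takes up, lay at -0.57 ± 0.24 in e/e NDP-MSH against e/e PBS (adjusted p = 1.0). Its values were -0.62 and -1.09 in e/e NDP-MSH 1 and 2, against -0.60 and 0.03 in e/e PBS 1 and 2. Slc40a1, of the same list, went the other way there, at 0.30 ± 0.12. Of 14 growth and polarisation signal genes 6 were higher and 8 lower in wild-type brains (median -0.02). Il34, a ligand of the macrophage receptor CSF1R, lay at 0.59 ± 0.21 (0.331), and Stat6, the transcription factor of interleukin-4 signalling, at 0.24 ± 0.09 (0.345). In e/e brains Stat6 lay at -0.27 ± 0.09 (adjusted p = 1.0), and the difference of its effects, wild-type minus e/e, was 0.51 ± 0.12 (0.439). None of the genes in these 3 lists passed the adjusted threshold in any of the 4 comparisons.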

How the data were processed

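Total brain RNA was labelled as cDNA with the WT Plus kit and measured on 8 Affymetrix whole-transcript arrays, per the labels' protocols. The authors deposited processed values, which were read as log2 values. How these were summarised, normalized and filtered, and the log base, is not given in the sources used here. Every row has a median of 0 over the arrays within 5e-07, and column medians lay between -0.0043 and 0.014. Signal bands came from the single-precision step left in the values (tolerance 0.1 of a step, 98 of 33793 probe sets outside both bands).

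Of the probe sets, 23521 had 1 symbol in the platform annotation, 1814 several and 8458 none. Of the first, 23328 had an Entrez identifier in the RefSeq table of GRCm38.p6, all with the same symbol. Means per gene gave 22180 genes, 1082 of them from several probe sets. limma 3.58.1 in R 4.3.3 fitted 1 coefficient per group over all arrays (4 residual and 3.45 prior degrees of freedom), with two-sided moderated tests. P-values were adjusted by Benjamini-Hochberg over 22180 genes, with a threshold of 0.05. The fit was tested on simulated data. Members and lists were chosen with earlier results of these data known. Named genes are the 8 members, the array checks, from each list the 3 largest past the threshold or otherwise the 2 smallest p, and the 10 genes most correlated with the members' mean that are no predicted, small RNA or receptor-family symbols. The 6 red blood cell genes listed gave 0 values. Alternatives were a replicate block, array weights, robust moderation, centring on array medians, quantile normalization, a fit to only the arrays compared, the most variable probe set, a signal of 8 or above, and leaving out each array. The number of arrays limits the precision. Figures used matplotlib 3.10.9 in Python 3.11.15.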

Additional observations from a re-analysis of the deposited data

Results flagged for a closer look

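Cd163 and F13a1 were marked because both wild-type NDP-MSH arrays lay above both wild-type PBS arrays while both e/e NDP-MSH arrays lay below both e/e PBS arrays, a pattern found in 3.17% of all genes. In e/e brains the Cd163 difference was -0.07 ± 0.07, no larger than its SE, and that of F13a1 was -0.40 ± 0.15. The difference of the NDP-MSH effects (wild-type minus e/e) was fitted as 0.44 for Cd163 and 0.70 for F13a1. As the members were chosen with these values known, the difference was not tested as evidence for them, and neither gene passed the adjusted threshold in the fit over all genes. With each array left out in turn, the difference lay between 0.39 and 0.49 for Cd163 and between 0.51 and 0.90 for F13a1. Over the other settings it went down to 0.32 for Cd163 and 0.45 for F13a1.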

How the results depend on the processing

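The count of genes called in wild-type brains was 39, and 14 with the replicate block, 20 after quantile normalization and 5 with only the arrays compared, and between 0 and 49 when single arrays were left out (0 without wild-type PBS 2). The difference of effects gave 1 call after quantile normalization, 3 at a signal of 8 or above, and 0 to 7 with arrays left out. Left-out arrays gave 0 to 51 calls in the e/e comparison (51 without e/e PBS 1) and 0 to 4 in the genotype comparison. The median of the 8 members was 0.22 in wild-type brains and 0.33 for the difference of effects after quantile normalization, which acted on centred values and can shrink differences. With single arrays left out it ran from 0.23 to 0.45 in wild-type brains, from -0.16 to 0.0776 in e/e brains, from 0.36 to 0.55 for the difference of effects and from -0.25 to -0.0579 between genotypes. The causes were not tested. The other settings left these medians within 1 standard deviation of replicates. The replicate numbers share only a number in the labels: replicate deviations of the groups correlated between -0.251 and 0.443 over genes. The replicate block left the wild-type median of the members at 0.34. It called 0 of 8 members, as did every other setting that left no single array out, and nothing is read from these calls. No member was in the band of 8 or above, so that setting gives none of them a value. All 8 lie in the dimmer band, where signal over background is smallest.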
